A study of Homo sapiens with 4 samples.

Results

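Glycolysis and the response to low oxygen were followed in SAS cells after knockdown of AEG-1 (also named LYRIC or MTDH), using 40 genes: glycolytic enzymes, glucose and lactate transporters, the kinases that set glycolytic flux, the oxygen-sensing proteins and genes that respond to hypoxia-inducible factor (HIF). Every array probe other than controls whose RefSeq accession gave the symbol of a listed gene was taken. Probes were not matched by gene name. This found 39 of the 40 genes with 48 probes, out of 19062 named genes and 34127 probes. ALDOA was not matched to a probe here and has no values. Among the 39 genes, 24 belong to glycolysis and lactate export and 15 to oxygen sensing and the HIF response. Where a gene had 2 probes, which was so for 9 genes, the brighter was used.

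Glycolysis splits glucose into pyruvate, and tumour cells commonly turn much of that pyruvate into lactate and export it even when oxygen is present. HIF is a dimer whose alpha subunit is hydroxylated by EGLN prolyl hydroxylases when oxygen is available, then bound by VHL and degraded. In low oxygen it accumulates, binds the short core of the hypoxia response element and raises most of the glycolytic enzymes together with carbonic anhydrases, mitophagy receptors and matrix-modifying enzymes, which is why both gene groups often move together in squamous carcinomas.

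SAS is an established cell line from a squamous carcinoma of the tongue. SB cells stably carry the lentiviral pLKO.1-LYRIC shRNA-B construct, and SCt cells are the control, for which the labels name the pLKO.1 vector while the methods name a scrambled shRNA. Both lines were stable clones, selected over 14 days in puromycin at 2 μg/ml and grown in the same DMEM and serum, with no hypoxic treatment named in the labels. On each of 4 two-colour arrays, cDNA from 15 μg of SB RNA (red) was hybridized with cDNA from the same amount of SCt RNA (green), so each array gave 1 ratio per probe, written here as the log2 of SB over SCt. There were 0 dye-swapped arrays and all 4 lay on 1 slide, so a dye preference of a probe and the effect of the knockdown cannot be told apart. The labels call the arrays biological replicates, but separate cultures were not established, and the SDs and p-values may then cover technical spread only. Less RNA per cell and fewer cells of a kind cannot be told apart in such bulk RNA.

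Between 84.7% and 90.3% of the spots were well above background per array and colour. The targeted gene was lower in SB cells on every array, with MTDH log2 ratios of −3.18, −3.01, −3.12 and −3.41 and a mean of −3.18 ± 0.17 (SD, n = 4; limma adjusted p = 5.21e-10), a level 9.07-fold lower. The squamous markers were all well above background on every array, KRT5, KRT14 and KRT17 at the 97.7, 99.4 and 98.1 percentile of probe brightness, while COL3A1, a fibroblast collagen, was above background on 0 of 4 arrays. The markers of other cell types were not all at background: COL1A1 lay at the 82.7 percentile and the brightest PTPRC probe at 94.2, while another PTPRC probe was above background on 0 arrays. Brightness depends on each probe and does not compare levels between genes, so these values show which markers were detected and do not establish the cell type.

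All 39 matched genes passed the filter on dim probes. Only CA12 was past an adjusted p of 0.05, and it was higher in SB cells. Of all 16583 genes tested, 4.19% were past that threshold (3.70% of all probes), 1.22% higher and 2.97% lower. Without adjustment, 3 of the 39 were higher (CA12, VHL and EPAS1) and 4 lower (SLC16A1, SLC16A3, EGLN1 and PFKP) at p under 0.05, a share of 17.9%, against 19.8% of all genes. A ratio of the same sign on every array was found in 28.2% of the 39 genes, 6 higher and 5 lower, against 28.1% of all genes. By each of these counts the listed genes changed about as often as genes in general. The median log2 ratio was −0.02 over the 39 genes, −0.05 over the 24 glycolysis genes and −0.00 over the 15 hypoxia genes, beside 0.00 over all genes. Centring each array on its median in place of loess, described further on, turned the glycolysis median positive, at 0.10.

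**Figure D1:**
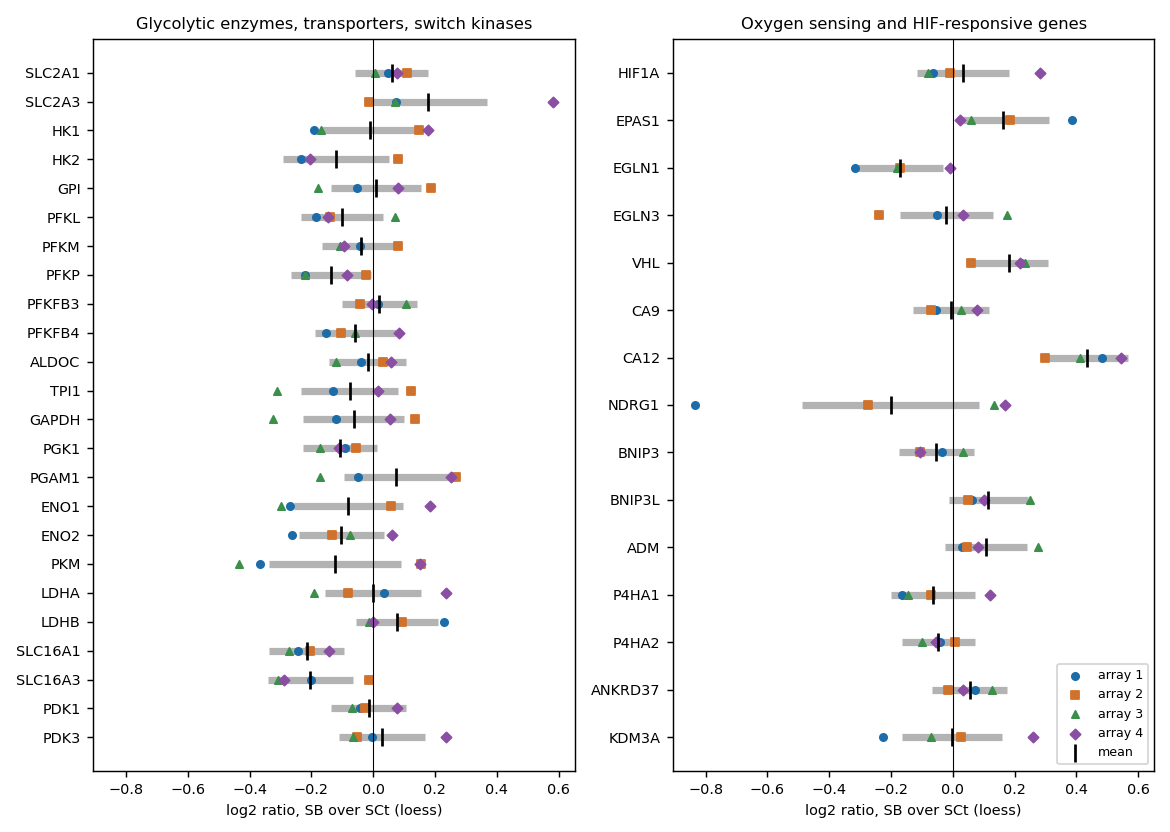
Log2 ratio of SB over SCt for each of the 39 genes, with 1 symbol per array, a black tick for the mean and a grey bar for the 95% interval of the mean from limma, for glycolysis genes on the left and hypoxia genes on the right. CA12 sits at 0.44, apart from the other genes, whose means lie between −0.22 and 0.18.

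CA12, the only gene of the 39 tested past the threshold, encodes a carbonic anhydrase anchored in the plasma membrane that hydrates carbon dioxide outside the cell, as does its relative CA9, the classic marker of hypoxic tumour tissue. The promoters of CA12 and CA9 are shown because these related HIF-responsive genes differed, and that of LDHA, a HIF-responsive enzyme, because its ratio lay near 0. Each sequence holds the 250 bases before the RefSeq start site on the gene's own strand, 5′ to 3′ (GRCh38.p14), with capitals for the core of the hypoxia response element, searched as ACGTG or GCGTG and, for the other strand, CACGT or CACGC. CA12 lies at chr15:63381847-63382096 (minus strand), CA9 at chr9:35673678-35673927 (plus strand) and LDHA at chr11:18394313-18394562 (plus strand). The choice of CA9 and LDHA was made after their values were seen.
CA12: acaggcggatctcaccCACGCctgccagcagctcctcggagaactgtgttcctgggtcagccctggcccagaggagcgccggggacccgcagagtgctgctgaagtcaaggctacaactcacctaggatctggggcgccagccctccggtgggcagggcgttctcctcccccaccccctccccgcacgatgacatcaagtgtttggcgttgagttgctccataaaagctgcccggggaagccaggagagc
CA9: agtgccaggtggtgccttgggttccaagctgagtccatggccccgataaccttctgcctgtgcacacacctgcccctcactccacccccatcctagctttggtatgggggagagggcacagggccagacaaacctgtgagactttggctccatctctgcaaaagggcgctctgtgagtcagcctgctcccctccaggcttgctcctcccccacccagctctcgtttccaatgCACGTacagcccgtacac
LDHA: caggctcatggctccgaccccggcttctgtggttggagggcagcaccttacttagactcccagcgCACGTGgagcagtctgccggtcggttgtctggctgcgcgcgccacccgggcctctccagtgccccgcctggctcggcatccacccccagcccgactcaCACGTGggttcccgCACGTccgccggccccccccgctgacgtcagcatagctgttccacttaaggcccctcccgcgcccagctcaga

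CA12 held 1 core, beginning 234 bases before the start, and CA9 held 1, beginning 18 bases before it. LDHA held 5 matches, since the palindrome CACGTG counts on both strands. Of the 40 listed genes 35 had a promoter in the table (SLC2A3, SLC16A1, VHL, NDRG1 and BNIP3L had none), and 23 of the 35, or 65.7%, held at least 1 core, as did 7 of the 8 HIF-responsive targets in the table. Among all 27305 promoters of the same length, 43.1% held one. A match says only that these letters occur in the window.

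The CA12 probe (A_24_P330518) gave log2 ratios of 0.48, 0.30, 0.41 and 0.54, with a mean of 0.44 ± 0.11 (SD, n = 4; 95% interval 0.31 to 0.57; limma adjusted p = 0.00229), a level 1.35-fold higher in SB cells. All 4 arrays lay above 0. The size depended on the processing: the mean was 0.58 with the scanner software's ratios, 0.57 with normexp without an offset and 0.36 with median centring. The probe was dim, at the 20.2 percentile of brightness, with deposited intensities of 299, 246, 337 and 301 in the SB channel and 111, 135.5, 168 and 130 in the SCt channel. The array medians were 655 to 875 in the SB channel and 362 to 588.5 in the SCt channel, so a part of that gap between colours is common to all probes, and the loess step removed it.

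CA9 (A_23_P157793) gave log2 ratios of −0.06, −0.07, 0.03 and 0.08, with a mean of −0.01 ± 0.07 (SD, n = 4; 95% interval −0.13 to 0.12). Its values lay on both sides of 0 and below those of CA12. CA12 was singled out for passing the threshold and CA9 was chosen after its values were seen, so this separation is not a test. Within each array CA12 exceeded CA9 by 0.54, 0.37, 0.39 and 0.47 on the log2 scale, a mean difference of 0.44 ± 0.08 (SD, n = 4). This pair was 1 of 13 pairs of related members compared within arrays. With 4 arrays the smallest two-sided p an exact permutation test can give is 0.125, so that test cannot pass 0.05 for any pair, and these differences are given as sizes with their SD. The CA12 minus CA9 and the BNIP3L minus BNIP3 differences were above 0 on 4 of 4 arrays. HK2 minus HK1 was below 0 on the 3 arrays with a value. A pair without a difference has 1 sign on all 4 arrays with a probability of 0.125. Some of 13 pairs would thus do so by chance.

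Glucose enters through SLC2A1 and SLC2A3 (GLUT1 and GLUT3). SLC2A1, the basal transporter, gave log2 ratios of 0.05, 0.11, 0.01 and 0.08, a mean of 0.06 ± 0.04 (SD, n = 4; 95% interval −0.06 to 0.18). SLC2A3, the high-affinity transporter, gave 0.07, −0.01, 0.07 and 0.58, a mean of 0.18 ± 0.27 (SD, n = 4; adjusted p = 0.302 by limma). The mean of SLC2A3 rests on array 4, and its dimmer probe gave −0.05 on that array and a mean of 0.07.

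Lactate leaves through SLC16A1 and SLC16A3 (MCT1 and MCT4), the latter a known HIF target. SLC16A1 gave log2 ratios of −0.24, −0.20, −0.27 and −0.14, with a mean of −0.22 ± 0.06 (SD, n = 4; 95% interval −0.34 to −0.09), and its adjusted p of 0.0554 in limma missed the threshold. SLC16A3 gave −0.20, −0.01, −0.31 and −0.29, with a mean of −0.20 ± 0.14 (SD, n = 4; 95% interval −0.34 to −0.06; adjusted p = 0.106 by limma). With loess, both lactate exporters were thus below 0 on every array, and of the 24 glycolysis genes they had the lowest means. With each array centred on its median instead, SLC16A3 was at −0.00 (adjusted p = 0.976 by limma), so its decrease depended on the normalization. The 2 differed from each other by 0.01 ± 0.14 on the log2 scale (SD, n = 4). Without array 4 SLC16A1 was past the threshold, at −0.24 (adjusted p = 0.0288 by limma), and without any other array it was not (adjusted p = 0.142 to 0.207).

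No glycolytic enzyme, transporter or switch kinase of the 24 was past the adjusted threshold. At an unadjusted p under 0.05 there were 3, a share of 12.5%, against 19.8% of all genes. All 24 intervals of the mean log2 ratio lay within −0.34 and 0.37. A p that misses the threshold does not show an unchanged gene, and these intervals give the range of changes that the arrays leave possible. The enzymes are taken in the order of the pathway.

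The hexokinases HK1 and HK2 phosphorylate glucose and trap it in the cell. HK1 gave a mean log2 ratio of −0.01 ± 0.20 (SD, n = 4). The brighter HK2 probe gave −0.23, 0.08 and −0.20 on arrays 1, 2 and 4, its spot on array 3 having been marked as an outlier by the scanner software, with a mean of −0.12 ± 0.17 (SD, n = 3). Its dimmer probe gave 0.07, 0.33, 0.10 and 0.55, a mean of 0.26 ± 0.22 (SD, n = 4; adjusted p = 0.0911 by limma). The 2 HK2 probes differed in sign, so the direction for HK2 depends on the probe.

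GPI, which isomerizes glucose 6-phosphate, gave a mean log2 ratio of 0.01 ± 0.16 (SD, n = 4). The 3 phosphofructokinase subunits catalyse the committed step. PFKL had a mean of −0.10 ± 0.12, PFKM of −0.04 ± 0.09 and PFKP, the platelet form, of −0.14 ± 0.10 (SD, n = 4 each). PFKP gave −0.22, −0.02, −0.22 and −0.08, below 0 on every array, but was not past the threshold (adjusted p = 0.237 by limma), and its other probe gave −0.05. The bifunctional kinases PFKFB3 and PFKFB4, which make the activator fructose 2,6-bisphosphate, had means of 0.02 ± 0.06 and −0.06 ± 0.10 (SD, n = 4).

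Below the committed step, the aldolase ALDOC gave a mean log2 ratio of −0.02 ± 0.08 and the triosephosphate isomerase TPI1 −0.08 ± 0.19 (SD, n = 4). GAPDH, which oxidizes glyceraldehyde 3-phosphate and which the study used to normalize its RT-QPCR, gave −0.12, 0.14, −0.32 and 0.06, a mean of −0.06 ± 0.20 (SD, n = 4; 95% interval −0.23 to 0.10). Its values fell on both sides of 0, and its probe was spotted 10 times per array. PGK1, the first ATP-making enzyme of the pathway, was tighter, at −0.09, −0.06, −0.17 and −0.11, a mean of −0.11 ± 0.05 (SD, n = 4; adjusted p = 0.321 by limma). PGAM1 had a mean of 0.08 ± 0.22 on its brighter probe and 0.09 ± 0.15 on the other.

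The enolases ENO1 and ENO2 make phosphoenolpyruvate. ENO1 gave −0.27, 0.06, −0.30 and 0.19, a mean of −0.08 ± 0.24, and ENO2 had a mean of −0.10 ± 0.13 (SD, n = 4). PKM, the pyruvate kinase whose M2 splice form is common in tumours, gave −0.37, 0.16, −0.43 and 0.15, a mean of −0.12 ± 0.32 (SD, n = 4; 95% interval −0.34 to 0.09), and the splice forms were not separated here. PKM had the largest SD of the 16 enzymes, with 2 arrays below 0 and 2 above.

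LDHA and LDHB, the subunits of lactate dehydrogenase, convert pyruvate and lactate. LDHA gave 0.03, −0.08, −0.19 and 0.24, a mean of −0.00 ± 0.18 (SD, n = 4; 95% interval −0.16 to 0.15), and LDHB had a mean of 0.08 ± 0.11 (SD, n = 4). Neither differed from 0 beyond its spread. The dimmer probes gave means of −0.09 ± 0.27 for LDHA and −0.01 ± 0.10 for LDHB (SD, n = 4). PDK1 and PDK3, kinases that switch off pyruvate dehydrogenase and so keep carbon out of mitochondria, had means of −0.01 ± 0.06 and 0.03 ± 0.14 (SD, n = 4). GAPDH, PGAM1, ENO1, LDHA, TPI1 and PKM have processed pseudogenes or near-identical relatives, and the part of their signal that comes from such copies was not tested.

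The enzyme ratios varied together from array to array. On arrays 1 and 3, 14 enzymes each lay below 0, out of 16 and of the 15 measured there, whereas 5 did on array 2 and 6 on array 4. The median of the 16 enzymes was −0.13, 0.08, −0.17 and 0.06 on arrays 1 to 4, while the median of all genes stayed within 0.01 of 0 on each array. The 15 hypoxia genes gave medians of −0.04, −0.01, 0.06 and 0.08. The 27 other glycolysis genes described further on gave −0.05, 0.04, −0.07 and 0.02, a smaller swing with the same signs, so it was not particular to the listed enzymes. The median SD between arrays was 0.17 for the enzymes, 0.10 for the HIF-responsive targets and 0.11 for all genes. The part of array-specific effects in this was not tested.

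Many of the enzymes, which are abundant proteins of the cell, had very bright probes. Of the 16 enzymes 9, or 56.2%, lay in the brightest decile of tested probes, against 11.02% of all genes. Before loess, the red over green ratio rose with brightness: after centring of each array on its median, the median log2 ratio of the probes ran from −0.31 in the dimmest decile to 0.20 in the brightest. After loess it ran from 0.02 to 0.00. Under median centring 17 of the 39 genes were past the threshold, 14 higher and 3 lower, among 30.4% of all genes.

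The genes past the threshold under median centring included many with bright probes. GAPDH moved to 0.29, ENO1 to 0.33, LDHA to 0.40 and TPI1 to 0.20, each opposite in sign to its loess value. PGAM1 moved to 0.41 and LDHB to 0.47, without a change of sign. ALDOC and ENO2, at the 10.8 and 13.1 percentile of brightness, moved to −0.20 and −0.26. CA12, a dim probe, stayed positive at 0.36, and SLC16A1 stayed negative at −0.20 and was past the threshold under this setting. SLC16A3 moved to −0.00.

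**Figure D2:**
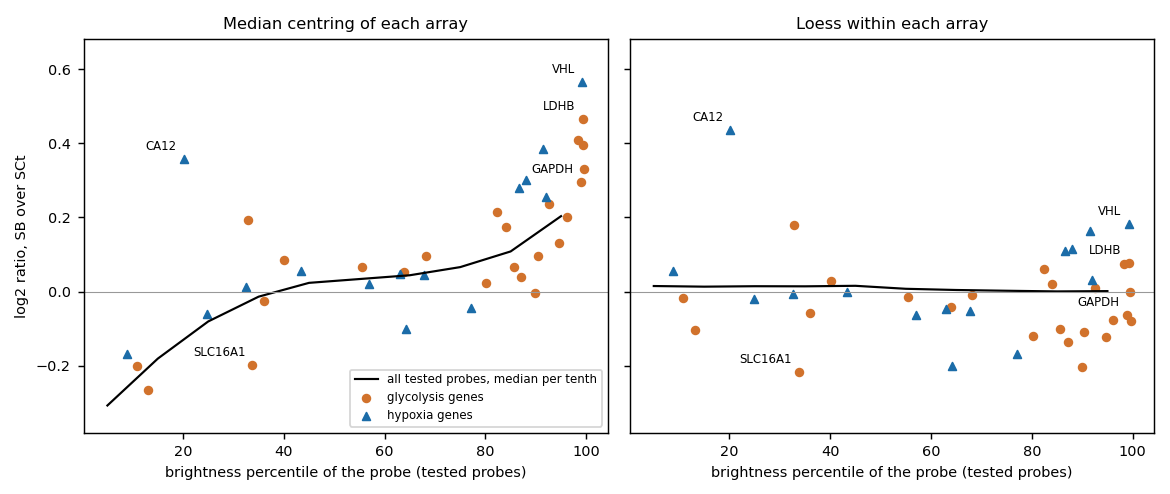
Log2 ratio of SB over SCt against the brightness percentile of the probe, after median centring of each array (left) and after loess (right), with the glycolysis genes as circles, the hypoxia genes as triangles and the median of all tested probes per decile of brightness as a line. On the left the bright enzymes follow the line upwards, whereas on the right they lie around 0 and CA12 stays apart at 0.44.

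Among the oxygen sensors, HIF1A, the alpha subunit itself, gave −0.06, −0.01, −0.08 and 0.28, a mean of 0.03 ± 0.17 (SD, n = 4; 95% interval −0.12 to 0.18). The dimmer HIF1A probe had a mean of −0.01 ± 0.11 (SD, n = 4). These are mRNA ratios, and HIF alpha subunits are controlled largely through protein stability, which was not measured here. EPAS1, which encodes HIF-2 alpha, gave 0.39, 0.19, 0.06 and 0.02, a mean of 0.16 ± 0.16 (SD, n = 4; 95% interval 0.02 to 0.31; adjusted p = 0.217 by limma). EPAS1 lay above 0 on every array but spread as widely as its mean.

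EGLN1, the main hydroxylase that marks HIF for degradation, gave −0.32, −0.17, −0.18 and −0.01, a mean of −0.17 ± 0.13 (SD, n = 4; adjusted p = 0.166 by limma). EGLN1 was below 0 on every array, with −0.22 without array 4 (adjusted p = 0.0478 by limma) and −0.12 without array 1 (adjusted p = 0.398). EGLN3, a hydroxylase that HIF itself raises, had a mean of −0.02 ± 0.17 (SD, n = 4). VHL, the substrate receptor of the ligase that degrades HIF, gave 0.22, 0.06, 0.23 and 0.22, a mean of 0.18 ± 0.08 (SD, n = 4; 95% interval 0.06 to 0.31; adjusted p = 0.106 by limma). Its only probe lay at the 99.2 percentile of brightness, with intensities of 71994.7 to 108052 in the SB channel, near those of the ENO1 and LDHA probes. Whether all of this signal comes from VHL transcripts was not tested, so the ratio may not be that of VHL. With a wider loess span (0.7 in place of 0.3) VHL was past the threshold at 0.26 (adjusted p = 0.0275 by limma). The ratios of the scanner software gave VHL a smaller value, 0.10 (adjusted p = 0.422 by limma), so its size depended on the normalization.

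Of the 10 HIF-responsive targets, the other 9 beside CA12 were not past the adjusted threshold. NDRG1, a stress-response gene raised by hypoxia, gave −0.84, −0.27, 0.13 and 0.17, a mean of −0.20 ± 0.47 (SD, n = 4; 95% interval −0.49 to 0.08). It had the largest spread of the 39 genes, with 2 arrays below and 2 above 0. The sign of the NDRG1 mean rested on array 1, without which it was 0.01 (adjusted p = 0.968 by limma), whereas without array 4 it was −0.32 (adjusted p = 0.0277).

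BNIP3 and BNIP3L are mitophagy receptors on the mitochondrial outer membrane. BNIP3 had a mean of −0.05 ± 0.07 and BNIP3L one of 0.12 ± 0.09 (SD, n = 4), and BNIP3L exceeded BNIP3 by 0.10, 0.15, 0.22 and 0.21 within the arrays. The other BNIP3L probe gave −0.02, so this difference holds for the brighter probe only. ADM, which encodes the vasodilator adrenomedullin, had a mean of 0.11 ± 0.11 (SD, n = 4; adjusted p = 0.368 by limma) and lay above 0 on every array. The collagen prolyl hydroxylase subunits P4HA1 and P4HA2 had means of −0.06 ± 0.13 and −0.05 ± 0.04, ANKRD37 of 0.05 ± 0.06 and the histone demethylase KDM3A of −0.00 ± 0.20 (SD, n = 4).

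A further 74 genes of the same pathways, listed by role, were read beside these. Of them 73 were on the array (FUT11 was not matched to a probe) and 70 were tested. SLC2A2, SLC2A12 and PPP1R3C were not well above background. None of the 27 other glycolysis genes and none of the 8 pentose phosphate genes were past the adjusted threshold by limma. At an unadjusted p under 0.05 there were 6 of the 27 (22.2%) and 0 of the 8, against 19.8% of all genes. BPGM, which makes 2,3-bisphosphoglycerate, was nearest, with −0.19 ± 0.05 (SD, n = 4; adjusted p = 0.0759 by limma), a gene named after its value was seen. Of the 35 other hypoxia-linked genes 4 were past it, 1 higher (LOX) and 3 lower (LOXL2, VEGFA and ZNF395). That share was larger than the 4.19% of all genes, but the list was chosen with earlier results of these data known. Without adjustment 2 of the 35 were higher and 9 lower at p under 0.05, a share of 31.4% against 19.8% of all genes.

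LOX and LOXL2 are lysyl oxidases that cross-link collagen and elastin, and they differed in direction. LOX gave 0.41, 0.64, 0.56 and 0.45, a mean of 0.52 ± 0.11 (SD, n = 4; adjusted p = 0.000749 by limma). LOXL2 gave −0.57, −0.40, −0.48 and −0.19, a mean of −0.41 ± 0.16 (SD, n = 4; adjusted p = 0.00674 by limma). Both were named for passing the threshold with 1 sign on all arrays, so their values could not overlap. The LOX probe was dim, with intensities of 193.6 to 337.2 in the SB channel, and its ratio was 0.79 with the scanner software's ratios and 0.70 with normexp without an offset. LOXL2 missed the threshold without array 3, at −0.39 (adjusted p = 0.0981 by limma).

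VEGFA, the angiogenic growth factor and a textbook HIF target, gave −0.75, −0.32, −0.31 and −0.21, a mean of −0.40 ± 0.24 (SD, n = 4; adjusted p = 0.0203 by limma). A second VEGFA probe gave −0.92, −0.31, −0.39 and −0.18, a mean of −0.45 ± 0.33 (SD, n = 4; adjusted p = 0.0277 by limma). Both probes were lower on every array, and array 1 lay farthest from 0 in both. Without array 1 VEGFA was at −0.28 and missed the threshold (adjusted p = 0.0580 by limma), as it did without array 2 or array 3. ZNF395, a hypoxia-inducible transcription factor, gave −0.33, −0.14, −0.20 and −0.27, a mean of −0.23 ± 0.08 (SD, n = 4; adjusted p = 0.0462 by limma), and it fell short of the threshold under 10 of 16 alternatives, among them the software ratios (adjusted p = 0.0689) and each fit without array 1, 2 or 3 (adjusted p = 0.109 to 0.165).

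**Figure D3:**
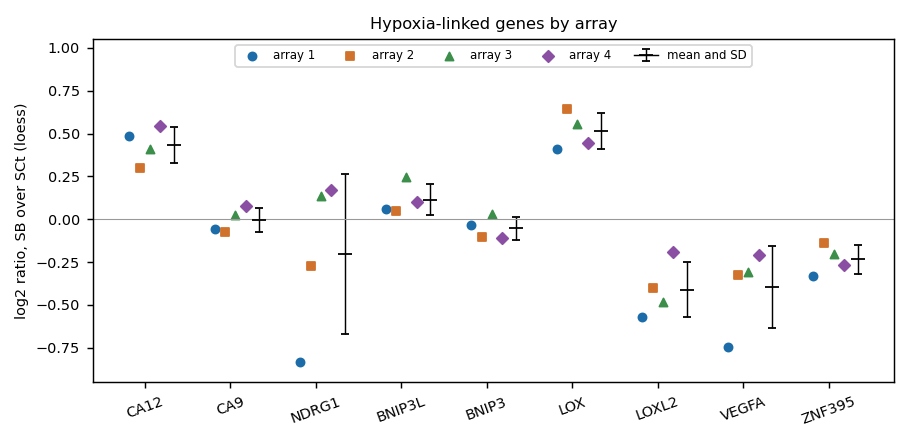
Log2 ratio of SB over SCt by array for 5 HIF-responsive members and the 4 related genes past the adjusted threshold, with 1 symbol per array and the mean with its SD beside them. CA12 and LOX lie above 0 on every array, LOXL2, VEGFA and ZNF395 below it, and NDRG1 spreads from −0.84 to 0.17.

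The hypoxia-linked genes past the threshold thus lay in both directions, CA12 and LOX up and LOXL2, VEGFA and, less firmly, ZNF395 down. The HIF-responsive genes CA9, BNIP3, EGLN3, P4HA1 and KDM3A, and the related DDIT4 (0.04) and HILPDA (0.00), had means within 0.10 of 0 on the log2 scale. ERO1A, an oxidase of the endoplasmic reticulum, gave 0.17, 0.20, 0.23 and 0.24 and just missed the threshold (adjusted p = 0.0555 by limma), and PLOD2, a collagen lysyl hydroxylase, gave −0.26, −0.13, −0.23 and −0.18 (adjusted p = 0.0748 by limma). These 4 genes were named after their values were seen.

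**Figure D4:**
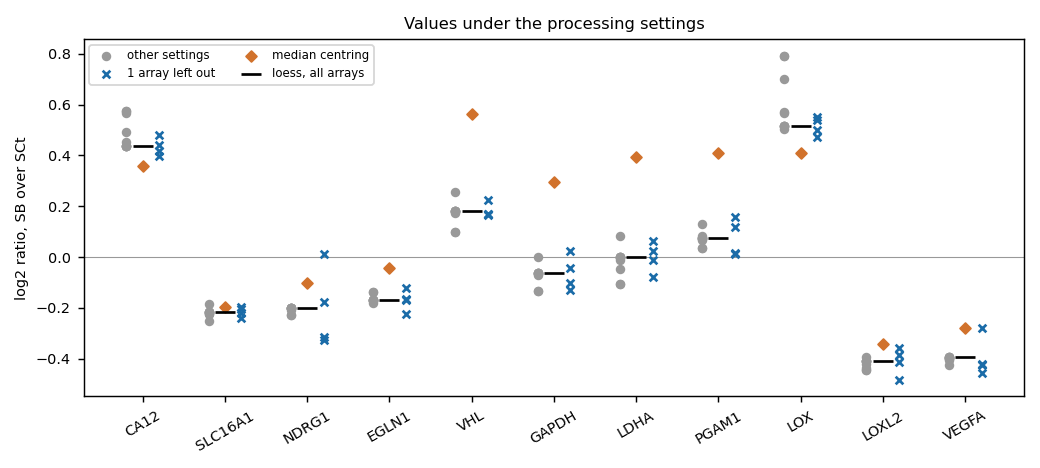
Log2 ratio of SB over SCt under each processing setting for 11 genes, with a black bar for loess on all arrays, crosses for 1 array left out, a diamond for median centring and grey circles for the other settings. Median centring lifts the bright probes VHL, GAPDH, LDHA and PGAM1, whereas CA12, SLC16A1, LOX, LOXL2 and VEGFA keep their sign in every setting shown.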

How the data were processed

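RNA of SB and SCt cells was compared on 4 two-colour Agilent arrays. The authors deposited, per array, scanner output (Agilent Feature Extraction 10.5.1.1) with median red and green spot intensities and local background on a linear scale, not normalized, and the software's dye-normalized ratio on a log10 scale. They also deposited a log2 table, direction unstated, which equalled the software's processed SB over SCt signals within 0.001 for 98.7% to 99.1% of probes (column medians −0.02 to 0.02).

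In R 4.3.3 with limma 3.58.1, normexp (offset 50) was run on all 44495 spots, 1377 control spots were removed, 814 to 1168 outlier spots per array were left out (0 were saturated), loess (span 0.3) was applied within arrays, and spots of a probe were averaged. Probes well above background in the same colour on all 4 arrays with values on at least 2 (28507 of 34127; 3.70% past the threshold) entered lmFit and eBayes against 0, with Benjamini-Hochberg adjustment over all of them. RefSeq accessions (GRCh38.p14) named 24826 probes, and 9301 stayed unnamed. The number of arrays limits the precision.

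All members, MTDH and related genes past the threshold with 1 sign on all arrays were named. Members and lists were chosen with earlier results of these data known. On simulated arrays (28507 probes), 44 of 49 probes changed by 0.3, 50 of 50 changed by 0.5, 50 of 50 by 1 and 50 of 50 by 2 were called with the right sign. The simulation gave every probe the same spread between arrays and every array the same dye curve. These shares therefore do not hold for genes with a wider spread or for genes that shift together by array, as the enzymes did. The 16 alternatives were 2 other ratio sources, 2 normalizations, 2 backgrounds, 2 probe filters, retention of outlier spots, the trend and robust options of eBayes, the methods' t-test, the mean over probes and each array left out.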

Additional observations from a re-analysis of the deposited data

Results flagged for a closer look

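Of 43 genes examined, 2 had 1 array far from the other 3, by the gap to its nearest neighbour over the whole range, and chance alone gives about 5% of genes. SLC2A3 was at 0.58 on array 4 on the log2 scale, against −0.01 to 0.07 on the others, a gap of 0.854 of the range, and its second probe gave −0.05 on that array. VHL was at 0.0602 on array 2, against 0.22 to 0.23 on the others, a gap of 0.907 of the range.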

How the results depend on the processing

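CA12 alone was past an adjusted p of 0.05 among the 39 genes, and it stayed higher under all 16 alternatives and past the threshold under 15. Median centring gave 17 genes (11 glycolysis, 6 hypoxia), 20 related genes and a glycolysis median of 0.10, and reversed TPI1 (0.20), GAPDH (0.29), ENO1 (0.33) and LDHA (0.40). The brightness trend that loess removes remains in that setting. A loess span of 0.7 gave 2 genes, both hypoxia genes. The methods' t-test with adjustment over all probes gave 0 members, 0 hypoxia genes and 0 related genes, left CA12 at an adjusted p of 0.222 and MTDH at −3.18 with 0.144, and called 0 of all genes. The software ratios and the series table gave 2 related genes each. With each array left out, the counts ran from 1 to 4 members, 0 to 1 glycolysis genes, 1 to 3 hypoxia genes and 1 to 4 related genes. The 4 members without array 4 were CA12, SLC16A1, EGLN1 and NDRG1. VEGFA fell short of the threshold under 6 alternatives and ZNF395 under 10. LOX missed it only with the methods' t-test, LOXL2 with it and without array 3 (adjusted p = 0.0981 by limma). Of 624 member values over the alternatives, 603 kept their side of the threshold, among them 47 whose sign changed while short of it in both settings, 16 passed it newly with the same sign, 4 passed it newly with the opposite sign and 1 fell short. The cause was not tested. Each ratio pairs SB with SCt within an array, and the fit against 0 is that paired analysis, so no further replicate block could be fitted. Dim probes such as CA12 and LOX carry signals nearer background. All 4 arrays share 1 slide, and the dyes were not swapped.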
